A study of Mus musculus with 20 samples.

Results

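Chemokines are small secreted proteins that direct the movement of leukocytes, and 64 gene identifiers of this family and of its receptors were followed in bone marrow and kidney of mice given oxaliplatin. Members were taken by symbol: genes whose symbol begins with Ccl, Cxcl, Ccr, Cxcr, Cx3c, Xcr, Xcl or Ackr and a digit, without pseudogene symbols and without 5 further symbols that are not analysed here. The 64 identifiers carry 58 symbols, since several copies of the Ccl19, Ccl21 and Ccl27 genes share a name, and they stand among 55486 genes in each count table. By class they are 31 CC ligands, 12 CXC ligands, 2 ligands of the CX3C and XC type, 15 signalling receptors and 4 atypical receptors. The choice used no measured value, but it was made with earlier results of these data known.

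RNA-seq counts came from 20 libraries of C57BL/6 mice, 5 in each of 4 groups. By the methods, the mice of the study were male and female and 10 weeks old at the start. They received 5% dextrose (vehicle) or oxaliplatin at 10 mg/kg in 5% dextrose by intraperitoneal injection for 8 weeks. The 4 groups are vehicle marrow, oxaliplatin marrow, vehicle kidney and oxaliplatin kidney. Oxaliplatin is a platinum drug that forms DNA adducts and is used against colorectal cancer. Whole marrow was spun out of femur and tibia on day 6 after treatment ended, so it holds every cell type of the marrow cavity. The labels name the libraries biological replicates and do not give the sex of a mouse, nor whether a marrow and a kidney with one number came from the same animal. Y-linked genes were detected in all 20 libraries (99.1 to 173 summed CPM in marrow, 77.5 to 110 in kidney), so no library came from females alone.

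CC ligands such as Ccl2 call monocytes out of the marrow into blood and tissue through Ccr2, eotaxins act on eosinophils through Ccr3, and CXC ligands of the Cxcl1 group act on neutrophils. Interferon-inducible CXC ligands act on T cells and NK cells through Cxcr3, and Cxcr4 holds hematopoietic progenitors and maturing leukocytes in the marrow. Signalling receptors couple to G proteins of the inhibitory class, whereas atypical receptors bind chemokines without that coupling and remove, carry or buffer them.

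Total counts per library were between 30660153 and 41140527 in marrow and between 24393007 and 30925430 in kidney. A floor of 3 counts came to 0.0668 to 0.0975 CPM in marrow and to 0.0900 to 0.130 CPM in kidney, a limit of counting error only. Levels are CPM (the count scaled to a common library size with TMM factors), log2 FC is oxaliplatin minus vehicle with its standard error after ±, and adjusted p is the Benjamini-Hochberg value of edgeR's two-sided quasi-likelihood test over all genes tested in that tissue. A member is said to have risen, fallen or been called where that adjusted p was under 0.05 and the fold change over 1.5. The tissues carried their defining transcripts: all 7 kidney tubule markers were tested in kidney (17270 to 19977 summed CPM with vehicle, 15964 to 18963 with oxaliplatin), and all 11 neutrophil markers and all 9 erythroid markers were tested in marrow. Cell type markers moved widely in marrow, where 9 of 9 erythroid markers fell (29680 to 52545 summed CPM with vehicle, 3544 to 10097 with oxaliplatin), 8 of 9 B cell markers fell (759 to 1267 against 291 to 384), and 8 of 8 adipocyte markers rose (179 to 276 against 954 to 3526). In such bulk samples a change in the number of cells of a type and a change in RNA per cell cannot be told apart. Among marrow libraries, oxaliplatin mice 3 and 4 stood apart within their group, with the lowest neutrophil sums of all 10 (10428 and 12116 against 19912 to 28091 in the other 8).

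In marrow, 8 CC ligands and 5 CXC ligands rose with oxaliplatin, while 2 CC ligands and 4 signalling receptors fell. Of the 64 members, 8 had no count, 14 had counts under the filter and 42 were tested, of which 14 rose and 6 fell, against 11.6% of all 22363 genes tested that rose and 11.8% that fell. This is 47.6% of the tested members called in either direction beside 23.3% of all genes, and the median log2 FC was 0.53 over the tested members and -0.04 over all genes. CC ligands rose in 8 and fell in 2 of 14 tested, CXC ligands rose in 5 and fell in 0 of 9, signalling receptors rose in 0 and fell in 4 of 13, and atypical receptors rose in 1 of 4. Neither of the 2 tested CX3C or XC ligands was called. The 10 mice split without overlap for 18 of the 42 tested members, 14 upwards and 4 downwards, which is 42.9% beside 24.9% of all genes (11.4% upwards, 13.5% downwards). Without the fold threshold 23 of the 42 passed, beside 33.1% of all genes. Ccl8, Ccl11, Ccl12, Ccl7, Ccl24, Cxcl13 and Cxcl2 passed the filter through the treated mice alone. The counts and shares of rises given here therefore include members let in by being high in 1 group. Where every library needed at least 10 counts, these genes were not tested. There 13 of the 20 calls remained, while 2169 of all 18334 genes rose and 2300 fell. Scaling by library size alone gave 19 higher and 2 lower in place of 14 and 6, and moved the median of all genes from -0.04 to 0.11. Without oxaliplatin mice 3 and 4, an alternative added after seeing the data, 16 rose and 4 fell, with 16 of the 20 calls shared.

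**Figure D1:**
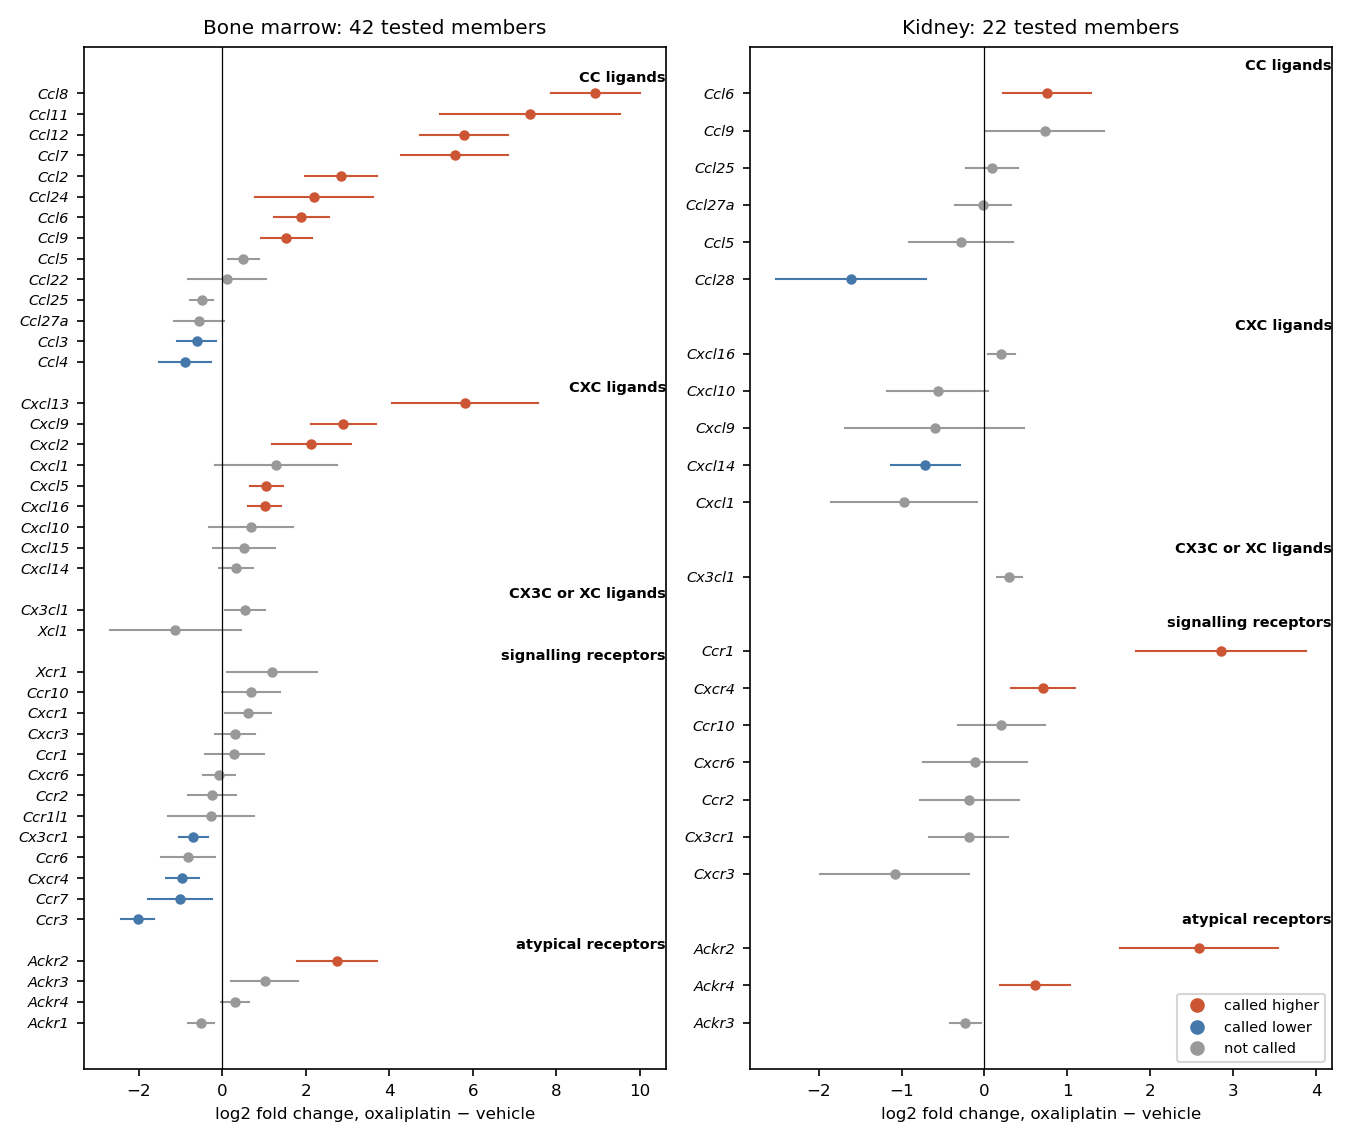
Log2 fold change (oxaliplatin minus vehicle, x axis) of the 42 members tested in marrow (left) and the 22 tested in kidney (right), grouped by class, with points for the fitted value and lines for its 95% interval, from 5 mice per group. Orange-red marks members called higher, blue those called lower and gray those not called; the CC ligands at the top of the marrow panel reach a log2 FC of 8.93, while the 4 called signalling receptors all lie to the left of 0.

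The largest rise was that of Ccl8, one of a row of neighbouring CC ligand genes on chromosome 11. Ccl2, Ccl7, Ccl11, Ccl12 and Ccl8 lie in this order, with no other member between them, from 82035571 to 82116799 on chromosome 11 (GRCm38), and all 5 rose in marrow. Promoter sequence of the neighbours Ccl12 and Ccl8 is shown because both rose from near the counting floor, and that of the neighbours Ccl6 and Ccl9 because they rose together from a high level. The lines hold the 250 bases before the RefSeq start in GRCm38.p6, read 5′ to 3′ on the gene's strand, at chr11:82101595-82101844 (plus strand) for Ccl12, chr11:82114935-82115184 (plus) for Ccl8, chr11:83593088-83593337 (minus) for Ccl6 and chr11:83578637-83578886 (minus) for Ccl9. Capitals mark matches on either strand to the TATA box (TATAAA) or to the AP-1 site (TGANTCA).
Ccl12: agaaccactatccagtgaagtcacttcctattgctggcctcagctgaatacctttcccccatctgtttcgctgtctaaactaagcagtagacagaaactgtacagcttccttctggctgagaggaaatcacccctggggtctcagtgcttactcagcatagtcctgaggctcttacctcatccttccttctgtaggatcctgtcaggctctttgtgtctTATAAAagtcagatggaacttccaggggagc
Ccl8: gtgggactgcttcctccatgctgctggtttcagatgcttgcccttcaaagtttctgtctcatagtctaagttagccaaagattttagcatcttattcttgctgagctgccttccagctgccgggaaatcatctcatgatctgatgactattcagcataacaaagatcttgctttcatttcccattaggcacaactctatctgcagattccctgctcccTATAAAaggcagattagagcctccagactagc
Ccl6: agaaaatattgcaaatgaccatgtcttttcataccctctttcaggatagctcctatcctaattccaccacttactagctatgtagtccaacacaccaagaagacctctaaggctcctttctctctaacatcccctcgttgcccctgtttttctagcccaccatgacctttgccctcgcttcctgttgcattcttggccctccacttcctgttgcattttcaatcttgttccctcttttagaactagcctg
Ccl9: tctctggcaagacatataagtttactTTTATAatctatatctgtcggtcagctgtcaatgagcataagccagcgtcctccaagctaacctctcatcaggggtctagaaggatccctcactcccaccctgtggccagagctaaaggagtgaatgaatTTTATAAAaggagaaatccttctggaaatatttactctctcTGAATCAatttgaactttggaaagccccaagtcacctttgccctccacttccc
The TATA box began 31 bases before the start in Ccl12 and 32 bases before it in Ccl8, while Ccl6 held no match to any motif searched. Of the 44 members with a promoter in the RefSeq table, 15 (34.1%) held TATAAA on either strand in these 250 bases, beside 14.3% of 27025 genes. Among members that rose in marrow it was 5 of 8 with an entry, among those that fell 1 of 4, and among those tested and not called 7 of 20. The gamma-activated site (TTCNNNGAA, 8.13% of all genes), the STAT6 type site (TTC and GAA with 4 bases between, 6.76%) and the interferon-stimulated core (GAAA repeated after 2 bases, 3.46%) were found in 0 of the 8, and TGANTCA (7.82%) in 1, which was Ccl9. A match is a string of letters in this window, and no match says nothing about a factor. Ccl2, Ccl7 and Ccl11 have no entry in the table.

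Ccl8, also known as MCP-2, rose most. It stood at 0.190, 0.0582, 0.378, 0.684 and 0.260 CPM in vehicle mice 1 to 5 and at 236, 198, 98.9, 164 and 88.2 CPM in oxaliplatin mice 1 to 5 (log2 FC 8.93 ± 0.48, adjusted p = 2.99e-07). The lowest treated mouse lay far above the highest vehicle mouse. Per kilobase of exon, Ccl8 went from 28th of the 42 tested members with vehicle (0.615 ± 0.464 CPM per kb, SD, n = 5) to first with oxaliplatin (307 ± 124), beside Ccl6 (305 ± 144), from which it did not differ beyond the spread. Ccl12, a mouse CC ligand that acts on Ccr2, stood at 0.127, 0, 0.189, 0.228 and 0.0650 CPM with vehicle and at 9.16, 8.81, 3.64, 7.12 and 6.36 CPM with oxaliplatin (log2 FC 5.80 ± 0.49, adjusted p = 2.07e-06). Ccl7, which binds several CC receptors including Ccr2, stood at 0, 0.291, 0.126, 0.0570 and 0.0650 CPM with vehicle and at 9.42, 5.14, 4.24, 5.79 and 2.16 CPM with oxaliplatin (log2 FC 5.57 ± 0.59, adjusted p = 1.41e-05). Without vehicle mouse 2, the highest of its group, the log2 FC of Ccl7 was 6.35. Ccl2, the main ligand that moves monocytes out of marrow, stood at 0.316, 0.378, 0.567, 0.485 and 0.617 CPM with vehicle and at 4.72, 2.51, 3.05, 5.61 and 1.21 CPM with oxaliplatin (log2 FC 2.85 ± 0.40, adjusted p = 1.16e-04). All 4 of these CC ligands had every treated mouse above every vehicle mouse, and in Ccl8, Ccl7 and Ccl2 oxaliplatin mouse 5 was the lowest of its group.

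Ligands of the eosinophil receptor Ccr3 rose as well. Ccl11, eotaxin-1, had no count in any vehicle mouse and stood at 0.835, 0.972, 0.420, 0.401 and 0.297 CPM in oxaliplatin mice 1 to 5, with 107 counts in all. Against a floor of 3 counts per vehicle library its mean was at least 6.36-fold higher (adjusted p = 3.37e-04). Ccl24, eotaxin-2, stood at 0.316, 0, 0.0630, 0.228 and 0.130 CPM with vehicle and at 1.07, 0.407, 0.489, 1.14 and 0.323 CPM with oxaliplatin (log2 FC 2.20 ± 0.65, adjusted p = 0.0200). The groups did not overlap but lay close, since the highest vehicle value was 0.316 and the lowest treated value 0.323 CPM, and Ccl24 lost its call without vehicle mouse 3 (adjusted p = 0.0542) and without oxaliplatin mouse 4 (0.0568). Beside these ligands, 5 of 12 macrophage markers rose and 2 fell in marrow (711 to 1066 summed CPM with vehicle, 1054 to 2416 with oxaliplatin, none at 0), with C1qa, C1qb, C1qc, Mrc1 and Folr2 higher and Timd4 and Marco lower. Adipocyte markers rose in 8 of 8, stromal markers in 3 of 8 (614 to 1104 against 663 to 1549) and skeletal muscle markers in 6 of 7 (11.9 to 110 against 47.4 to 823). The part of these cells in the ligands' rise was not tested.

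**Figure D2:**
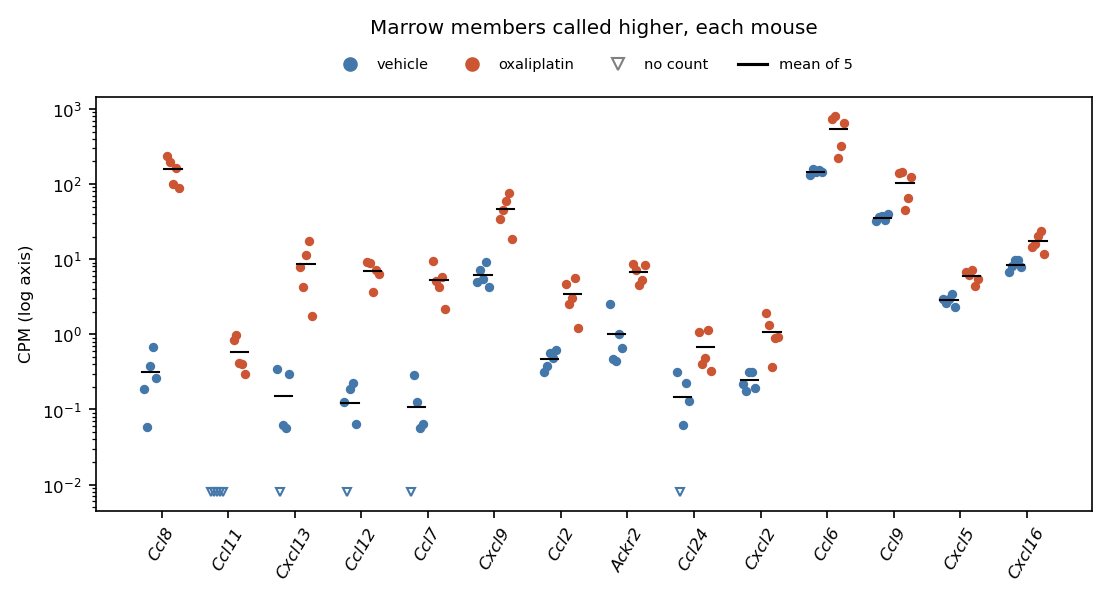
CPM (log axis) of the 14 members called higher in marrow, 1 point per mouse, with vehicle in blue and oxaliplatin in orange, black bars for the mean of 5 mice and open triangles for libraries without a count. The groups do not overlap for any of the 14, the vehicle mice have no count of Ccl11, and the Ccl6 and Ccl9 points of oxaliplatin mice 3 and 4 lie below those of mice 1, 2 and 5.

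Ccl6 and Ccl9, CC ligands made by myeloid cells that act on Ccr1, were already abundant in vehicle marrow and rose further. Ccl6 stood at 134, 158, 145, 152 and 145 CPM with vehicle and at 728, 809.6, 223, 325 and 651 CPM with oxaliplatin (log2 FC 1.90 ± 0.31, adjusted p = 5.05e-04), and was the second highest member per kilobase in both groups. Ccl9 stood at 32.3, 36.2, 37.1, 33.7 and 39.4 CPM with vehicle and at 141, 144, 45.0, 66.0 and 123 CPM with oxaliplatin (log2 FC 1.54 ± 0.28, adjusted p = 0.00132). Both showed the same order in treated mice, with mouse 3 lowest, mouse 4 next, then mice 5, 1 and 2, and every treated mouse was above the vehicle range. The neutrophil and classical monocyte sums were lowest in the same mice 3 and 4, at 10428 and 12116 CPM for neutrophil markers and at 1381 and 2106 CPM for monocyte markers, against 4026 to 5604 CPM of monocyte markers in mice 1, 2 and 5. With mice 3 and 4 left out, the log2 FC was 2.31 for Ccl6 and 1.93 for Ccl9. In all, 3 of 8 monocyte markers rose (2215 to 2755 summed CPM with vehicle, 1381 to 5604 with oxaliplatin), and 0 of 11 neutrophil markers were called by edgeR, 0 by DESeq2 and 0 at an unadjusted p under 0.05. Their part in the spread of Ccl6 and Ccl9 was not tested.

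The remaining CC ligands fell or were not called. Ccl3 and Ccl4, ligands of Ccr1 made by activated myeloid and cytotoxic cells, lie next to Ccl6 and Ccl9 on chromosome 11, in a block of 5 members from 83525778 to 83664683 that Ccl5 opens. Ccl3 stood at 3.73, 4.31, 5.55, 3.36 and 4.00 CPM with vehicle and at 2.79, 3.45, 2.66, 3.00 and 1.81 CPM with oxaliplatin (log2 FC -0.61 ± 0.21, adjusted p = 0.0423). Ccl4 stood at 1.46, 1.57, 1.64, 2.05 and 2.66 CPM with vehicle and at 1.01, 1.19, 0.653, 1.51 and 0.701 CPM with oxaliplatin (log2 FC -0.89 ± 0.29, adjusted p = 0.0322). In both, the highest treated mouse reached into the vehicle range. Ccl3 lost its call in 15 of 18 alternatives, which include leaving out any 1 library other than vehicle mouse 4 or treated mouse 2 (adjusted p 0.0554 to 0.123), and Ccl4 lost it in 9 of 18, which include leaving out vehicle mouse 4 or 5 or treated mouse 1, 3 or 5 (adjusted p 0.0567 to 0.0931). NK cell markers rose in 1 and fell in 3 of 8 (53.2 to 72.6 summed CPM with vehicle, 42.8 to 83.9 with oxaliplatin), and their part was not tested. Ccl5, a T and NK cell product, stood at 5.54, 9.75, 6.27, 7.84 and 7.80 CPM with vehicle and at 13.2, 9.72, 8.34, 10.1 and 11.6 CPM with oxaliplatin (log2 FC 0.51 ± 0.18, adjusted p = 0.0415), under the 1.5-fold threshold. Ccl25, a thymus and gut ligand, stood at 14.0 to 16.5 CPM with vehicle and 9.28 to 13.5 CPM with oxaliplatin, without overlap, and also stayed under 1.5-fold (log2 FC -0.49 ± 0.12, adjusted p = 0.00782). The other pair, Ccl22 and Ccl27a, gave no detected change. Ccl22, which acts on Ccr4, stood at 0.601, 0.989, 1.20, 0.485 and 0.585 CPM with vehicle and at 0.518, 0.501, 1.40, 1.34 and 0.377 CPM with oxaliplatin (log2 FC 0.11, 95% interval -0.82 to 1.04, adjusted p = 0.872). Ccl27a, a skin ligand of Ccr10, stood at 1.49, 2.18, 2.05, 1.45 and 1.20 CPM with vehicle and at 1.18, 0.690, 1.51, 1.36 and 0.890 CPM with oxaliplatin (log2 FC -0.57, 95% interval -1.16 to 0.03, adjusted p = 0.140), and 45.0% of its 50-base windows recur in transcripts of other genes. The groups overlapped for both genes.

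CXC ligands rose in 5 of 9 tested and fell in 0, also with 0 lower by DESeq2 and 0 lower at an unadjusted p under 0.05. Cxcl13, the B cell attractant of lymphoid follicles, stood at 0.348, 0, 0.0630, 0.0570 and 0.292 CPM with vehicle and at 7.95, 4.33, 11.4, 17.4 and 1.75 CPM with oxaliplatin (log2 FC 5.82 ± 0.80, adjusted p = 1.75e-04). Cxcl9, an interferon-gamma inducible ligand of Cxcr3, stood at 5.00, 7.16, 5.51, 9.18 and 4.26 CPM with vehicle and at 34.2, 44.9, 60.2, 74.9 and 18.5 CPM with oxaliplatin (log2 FC 2.90 ± 0.36, adjusted p = 8.02e-05). Both were highest in oxaliplatin mouse 4, next highest in mouse 3 and lowest in mouse 5, an order unlike that of Ccl6 and Ccl9. Cxcl10, encoded beside Cxcl9 and also interferon-inducible, stood at 1.36, 2.62, 1.54, 2.48 and 1.04 CPM with vehicle and at 2.25, 2.29, 5.10, 4.34 and 0.566 CPM with oxaliplatin (log2 FC 0.69, 95% interval -0.32 to 1.70, adjusted p = 0.291), with overlapping groups and the highest values again in mice 3 and 4. Cxcl16, a membrane-bound ligand of Cxcr6, stood at 6.84, 8.21, 9.64, 9.80 and 7.96 CPM with vehicle and at 14.6, 16.0, 20.4, 23.4 and 11.7 CPM with oxaliplatin (log2 FC 1.02 ± 0.18, adjusted p = 8.56e-04). The groups were apart, with mice 3 and 4 again highest. Exons of Cxcl16 overlap Zmynd15 on the opposite strand over 18.3% of their length.

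Among the neutrophil attractants, Cxcl2 stood at 0.222, 0.175, 0.315, 0.314 and 0.195 CPM with vehicle and at 1.93, 1.32, 0.373, 0.890 and 0.917 CPM with oxaliplatin (log2 FC 2.13 ± 0.44, adjusted p = 0.00216). Cxcl5 stood at 2.91, 2.65, 2.99, 3.42 and 2.34 CPM with vehicle and at 6.65, 6.21, 7.09, 4.36 and 5.42 CPM with oxaliplatin (log2 FC 1.05 ± 0.18, adjusted p = 6.67e-04). Every treated mouse exceeded every vehicle mouse for both genes, although Cxcl2 stayed under 2 CPM throughout and 5.84% of its 50-base windows recur in transcripts of other genes. Cxcl1 stood at 0.127, 0.349, 0.126, 0 and 0.357 CPM with vehicle and at 0.576, 0.313, 0.373, 0.912 and 0.162 CPM with oxaliplatin (log2 FC 1.29, 95% interval -0.18 to 2.75, adjusted p = 0.169), with overlapping groups and an interval that includes 0. Cxcl14, an ancient CXC ligand and the third highest member per kilobase in vehicle marrow (26.6 ± 4.02 CPM per kb), stood at 53.6, 47.3, 57.4, 46.1 and 38.3 CPM with vehicle and at 64.8, 48.7, 74.3, 78.8 and 38.2 CPM with oxaliplatin (log2 FC 0.33, 95% interval -0.07 to 0.73, adjusted p = 0.195). The groups overlapped. The ninth tested CXC ligand, Cxcl15, was not called.

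Neither CX3C nor XC ligand was called by edgeR, while DESeq2 called 1, Cx3cl1, which also was the 1 at an unadjusted p under 0.05. Cx3cl1, fractalkine, a membrane-bound ligand of Cx3cr1, stood at 6.24, 5.70, 6.08, 10.3 and 5.52 CPM with vehicle and at 12.4, 9.34, 8.25, 12.9 and 6.58 CPM with oxaliplatin (log2 FC 0.55, 95% interval 0.06 to 1.03, adjusted p = 0.0789). Vehicle mouse 4 alone reached into the treated range, and Cx3cl1 was called without it (log2 FC 0.75, adjusted p = 0.0147) and without treated mouse 5 (0.70, adjusted p = 0.0219). Xcl1, which draws cross-presenting dendritic cells, stood at 0.981, 0.378, 0.347, 0.827 and 0.0650 CPM with vehicle and at 0.0576, 0.125, 0.629, 0.289 and 0.0539 CPM with oxaliplatin (log2 FC -1.12, 95% interval -2.68 to 0.44, adjusted p = 0.264), a level near the floor with overlapping groups.

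Of the signalling receptors, 4 of 13 tested fell and 0 rose by edgeR. At an unadjusted edgeR p under 0.05, 2 were higher, Cxcr1 and Xcr1, and 5 lower. DESeq2 gave 2 higher, Cxcr1 and Ccr4, and 5 lower, with Ccr6 added. Ccr4 was under the edgeR filter and is not among the 13. Ccr3, the eotaxin receptor of eosinophils, fell most, and stood at 27.9, 27.7, 20.9, 31.2 and 24.1 CPM with vehicle and at 7.63, 8.71, 6.39, 4.50 and 5.15 CPM with oxaliplatin (log2 FC -2.03 ± 0.18, adjusted p = 3.80e-06). The groups did not overlap. Eosinophil markers fell in 6 of 7 (1916 to 2284 summed CPM with vehicle, 435 to 1170 with oxaliplatin, none at 0), among them Epx, the eosinophil peroxidase (log2 FC -1.70 ± 0.20, adjusted p = 3.07e-05), and Prg2, the major basic protein (log2 FC -1.60 ± 0.21, adjusted p = 8.35e-05). Their part in the fall of Ccr3 was not tested. Cxcr4, the marrow retention receptor and the highest member per kilobase with vehicle (149.6 ± 13.4 CPM per kb), stood at 238, 284, 260.4, 302 and 267 CPM with vehicle and at 160.4, 145, 92.2, 101 and 199.5 CPM with oxaliplatin (log2 FC -0.95 ± 0.18, adjusted p = 0.00139). No treated mouse reached the vehicle range, and mice 3 and 4 were lowest. Without these mice the log2 FC of Cxcr4 was -0.68, still called. Cx3cr1, the fractalkine receptor of patrolling monocytes, stood at 21.5, 25.3, 22.3, 23.8 and 20.1 CPM with vehicle and at 16.5, 11.3, 9.74, 14.0 and 18.2 CPM with oxaliplatin (log2 FC -0.70 ± 0.16, adjusted p = 0.00457). The groups did not overlap, but the fold change came under 1.5 with library size alone (log2 FC -0.55) and without mice 3 and 4 (-0.56).

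Ccr7, which guides lymphocytes and dendritic cells to lymph nodes, stood at 5.48, 7.57, 5.45, 8.72 and 7.51 CPM with vehicle and at 6.37, 3.45, 1.03, 2.85 and 3.56 CPM with oxaliplatin (log2 FC -1.01 ± 0.35, adjusted p = 0.0430). Oxaliplatin mouse 1 lay inside the vehicle range, and Ccr7 lost its call in 11 of 18 alternatives, which include leaving out any 1 vehicle mouse or treated mouse 2, 4 or 5 (adjusted p 0.0518 to 0.0904). Ccr6, a receptor of B cells and of T helper subsets, stood at 1.90, 2.47, 1.51, 1.37 and 2.27 CPM with vehicle and at 1.79, 1.10, 0.792, 1.07 and 0.674 CPM with oxaliplatin (log2 FC -0.82 ± 0.30, adjusted p = 0.0509), and missed the threshold. It was called lower in 4 of 18 alternatives: DESeq2 (adjusted p 0.0407), at least 10 counts in every library (0.0436), without vehicle mouse 4 (0.0400) and without oxaliplatin mouse 1 (0.0134). Beside both receptors, B cell markers fell in 8 of 9 and T cell markers in 1 of 9 (90.6 to 126 summed CPM with vehicle, 46.5 to 73.9 with oxaliplatin), and their part was not tested. The lower T cell sum came from Cd4 (78.6 ± 15.0 to 28.5 ± 6.47 CPM, SD, n = 5), since the means of the other 8 T cell markers added up to 29.4 CPM with vehicle and 33.9 CPM with oxaliplatin.

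Receptors of the raised monocyte, myeloid and interferon-inducible ligands were not called, unlike Ccr3. Ccr2, the receptor of Ccl2, Ccl7 and Ccl12 on monocytes, stood at 105, 120.0, 109.7, 124 and 123 CPM with vehicle and at 149, 90.9, 41.8, 79.9 and 130.2 CPM with oxaliplatin (log2 FC -0.24, 95% interval -0.82 to 0.34, adjusted p = 0.530). Ccr1, the receptor of Ccl6 and Ccl9, stood at 50.6, 57.8, 56.7, 58.1 and 74.1 CPM with vehicle and at 88.0, 90.6, 25.8, 45.9 and 113 CPM with oxaliplatin (log2 FC 0.29, 95% interval -0.42 to 1.00, adjusted p = 0.541). Both spread widely among treated mice, with mouse 3 lowest for each, so that treated values lay on both sides of the vehicle range for Ccr1. With mice 3 and 4 left out, Ccr1 was called higher (log2 FC 0.71, adjusted p = 2.71e-04) and Ccr2 stood at 0.09 (adjusted p = 0.664). Cxcr3, the receptor of Cxcl9 and Cxcl10, stood at 5.32, 5.99, 5.04, 5.99 and 5.85 CPM with vehicle and at 8.47, 7.43, 3.75, 9.59 and 5.74 CPM with oxaliplatin (log2 FC 0.31, 95% interval -0.17 to 0.79, adjusted p = 0.314). Cxcr6, the receptor of Cxcl16, stood at 5.25, 4.74, 5.36, 3.76 and 4.35 CPM with vehicle and at 4.15, 4.73, 3.24, 4.99 and 5.23 CPM with oxaliplatin (log2 FC -0.07, 95% interval -0.46 to 0.32, adjusted p = 0.800). Groups overlapped for all 4 receptors.

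Ccr10, the receptor of Ccl27a and Ccl28, stood at 1.87, 1.51, 1.35, 1.05 and 2.24 CPM with vehicle and at 3.34, 3.26, 1.42, 3.52 and 1.40 CPM with oxaliplatin (log2 FC 0.69, 95% interval -0.02 to 1.39, adjusted p = 0.126). Xcr1, a marker of cross-presenting dendritic cells and the receptor of Xcl1, stood at 0.253, 0.291, 0.252, 0.969 and 0.325 CPM with vehicle and at 0.490, 0.533, 1.45, 1.67 and 0.647 CPM with oxaliplatin (log2 FC 1.19, 95% interval 0.11 to 2.27, adjusted p = 0.0868). Oxaliplatin mice 3 and 4 held the 2 highest values, above vehicle mouse 4 at 0.969 CPM. Dendritic cell markers rose in 1 and fell in 5 of 9 (172 to 198 summed CPM with vehicle, 178 to 451 with oxaliplatin), and their part was not tested. The higher sum came from Clec10a (10.4 ± 2.44 to 212 ± 101 CPM, SD, n = 5), while the means of the other 8 added up to 179 CPM with vehicle and 109 CPM with oxaliplatin. The other tested receptors, Cxcr1 and Ccr1l1, were not called.

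**Figure D3:**
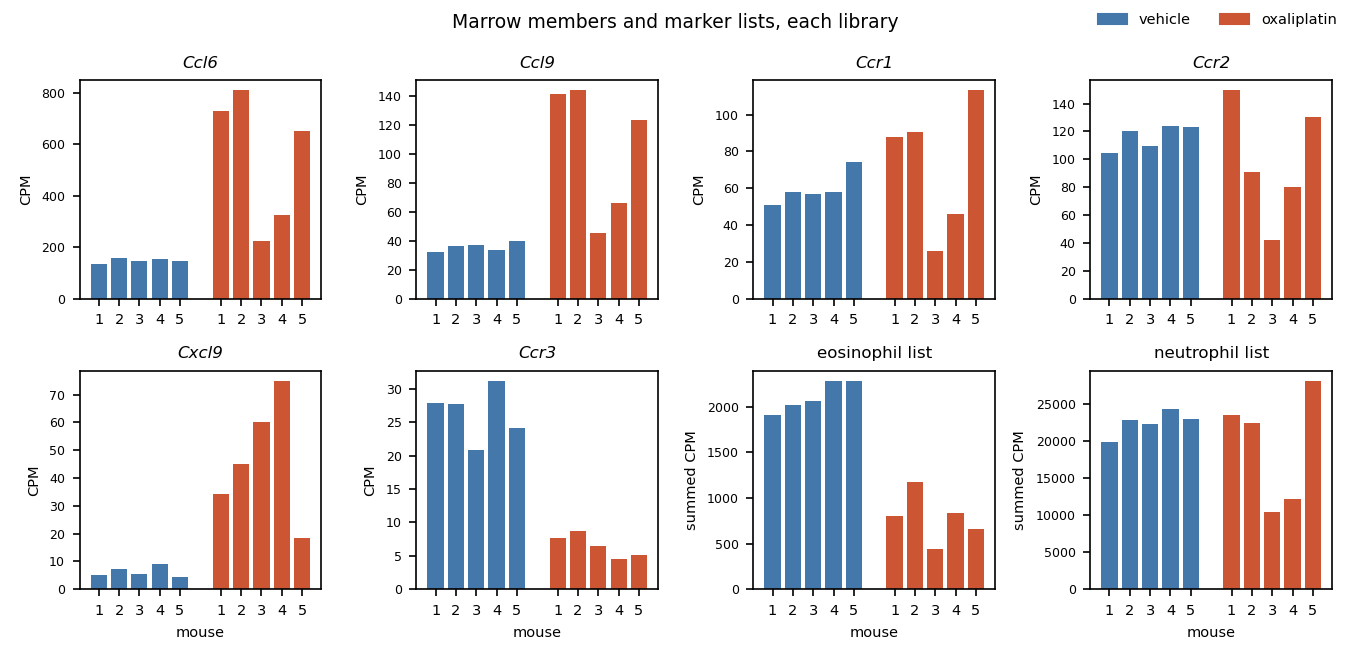
Level in each marrow library (vehicle mice 1 to 5 in blue, oxaliplatin mice 1 to 5 in orange) of 6 members in CPM and of the summed eosinophil and neutrophil marker lists in CPM, all axes starting at 0. Ccl6, Ccl9, Ccr1, Ccr2 and the neutrophil sum are low in oxaliplatin mice 3 and 4, Cxcl9 is highest in those mice, and Ccr3 and the eosinophil sum are below every vehicle value in all 5 oxaliplatin mice.

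Of the atypical receptors edgeR called 1, Ackr2, and DESeq2 called 2, Ackr2 and Ackr3. Ackr2, a scavenger of inflammatory CC chemokines, stood at 2.50, 0.466, 0.441, 0.998 and 0.650 CPM with vehicle and at 8.73, 7.08, 4.52, 5.21 and 8.38 CPM with oxaliplatin (log2 FC 2.74 ± 0.44, adjusted p = 3.89e-04). Vehicle mouse 1 lay well above the other 4 but below every treated mouse, and without it the log2 FC was 3.40. Ackr1, the Duffy antigen of erythroid cells and venules, stood at 21.2, 23.2, 24.9, 26.3 and 19.2 CPM with vehicle and at 19.96, 17.3, 18.0, 12.5 and 13.2 CPM with oxaliplatin (log2 FC -0.50 ± 0.14, adjusted p = 0.0166), with overlapping groups and under 1.5-fold, beside 9 of 9 erythroid markers lower. Of the exon length of Ackr1, 25.7% overlaps Cadm3. Ackr3, which takes up CXC ligands, stood at 0.823, 0.291, 0.693, 0.656 and 0.487 CPM with vehicle and at 0.979, 0.940, 1.07, 2.23 and 0.728 CPM with oxaliplatin (log2 FC 1.01 ± 0.37, adjusted p = 0.0535), with vehicle mouse 1 inside the treated range. It was called higher in 6 of 18 alternatives, among them DESeq2, both other scalings, the Y-linked covariate and the fit without oxaliplatin mouse 5 (adjusted p 0.0226 to 0.298 over all 18). Ackr4, a scavenger of homeostatic ligands, stood at 14.9, 14.1, 16.1, 18.7 and 16.6 CPM with vehicle and at 21.5, 14.1, 22.8, 24.5 and 16.6 CPM with oxaliplatin (log2 FC 0.31, 95% interval -0.02 to 0.64, adjusted p = 0.143), with overlap.

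Genes that act around the chemokine system were taken from lists written with earlier results of these data known. In marrow 11.6% of all genes tested rose and 11.8% fell, the background for each list here. Of 29 receptor signalling genes tested, 3 rose, near that share, and 1 fell, below it. Among those that rose were the regulator of G protein signalling Rgs16 (log2 FC 1.85 ± 0.24, adjusted p = 7.14e-05) and the platelet regulator Rgs18 (log2 FC 0.97 ± 0.15, adjusted p = 2.95e-04). The arrestin gene Arrb1 was lower (log2 FC -0.70 ± 0.10, adjusted p = 1.45e-04). Of 6 relatives outside the symbol rule, 4 rose and 1 fell. The platelet chemokines Pf4 (log2 FC 1.44 ± 0.17, adjusted p = 3.26e-05) and Ppbp (log2 FC 0.82 ± 0.18, adjusted p = 0.00335) rose beside 7 of 7 megakaryocyte markers, a list that holds both genes (1176 to 1839 summed CPM with vehicle, 2171 to 3294 with oxaliplatin). The chemerin gene Rarres2 (log2 FC 2.46 ± 0.30, adjusted p = 5.13e-05) and its receptor Cmklr1 (log2 FC 1.51 ± 0.15, adjusted p = 9.30e-06) both rose, while Ccrl2, which presents chemerin, fell (log2 FC -1.61 ± 0.12, adjusted p = 1.08e-06). Of 15 tested upstream cytokine, NF-kappaB and interferon genes, 1 rose, Il6 (log2 FC 1.68 ± 0.42, adjusted p = 0.00774), and 1 fell, Irf7 (log2 FC -1.51 ± 0.11, adjusted p = 7.87e-07), with Tnf at a log2 FC of 0.02 ± 0.24 (adjusted p = 0.969). Among 13 genes that trim or present ligands, 3 rose and 3 fell. The macrophage elastase Mmp12 (log2 FC 5.67 ± 0.79, adjusted p = 2.77e-04) and the gelatinase Mmp2 (log2 FC 3.11 ± 0.39, adjusted p = 1.02e-04), both of which cleave CC ligands, rose, and Dpp4, which clips the first residues of many chemokines, fell (log2 FC -1.81 ± 0.14, adjusted p = 1.25e-06).

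In kidney fewer members were measurable and fewer changed. Of the 64 members, 10 had no count, 32 had counts under the filter and 22 were tested, of which 5 rose and 2 fell, against 7.68% of all 19293 genes tested that rose and 3.81% that fell. That is 31.8% of the tested members beside 11.5% of all genes, with a median log2 FC of -0.06 over the members and 0.02 over all genes. The groups did not overlap for 6 members, 4 upwards and 2 downwards, which is 27.3% beside 20.7% of all genes (9.69% upwards, 11.0% downwards), and 8 members passed without the fold threshold, beside 29.4% of all genes. Signalling receptors rose in 2 and fell in 0 of 7 by edgeR (1 lower by DESeq2, Xcr1, and 1 at an unadjusted p under 0.05, Cxcr3), atypical receptors rose in 2 of 3, CC ligands rose in 1 and fell in 1 of 6, and CXC ligands fell in 1 of 5. Scaling by library size alone gave 5 higher and 1 lower in place of 5 and 2. Ccr1 and Ackr2 passed the filter through the treated kidneys alone, so the share of rises includes members let in that way. Where every library needed at least 10 counts they were not tested, and 5 of the 7 calls remained. Under the filter were all 5 genes of the Ccl2 to Ccl8 block, so that their rise in marrow had no tested counterpart here.

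**Figure D4:**
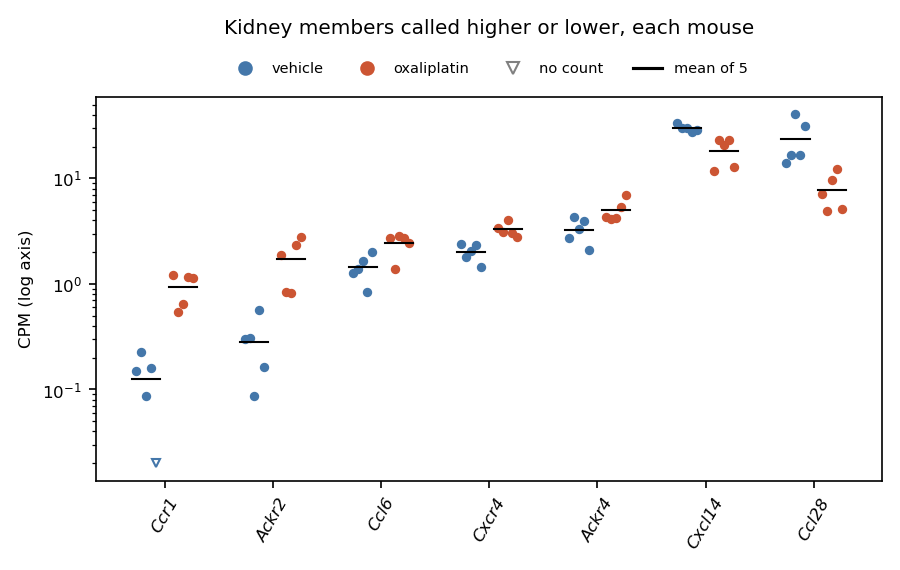
CPM (log axis) in each kidney of the 7 members called, with vehicle in blue, oxaliplatin in orange, black bars for the mean of 5 mice and an open triangle for a library without a count. Ccr1 reaches 0.229 CPM at most in vehicle kidneys and 0.539 CPM at least in treated kidneys, Ackr2 0.564 and 0.827 CPM, while Ccl6 and Ackr4 overlap between groups.

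Among kidney ligands, Ccl28, a mucosal epithelial ligand of Ccr10, fell most. It stood at 13.9, 16.5, 40.3, 16.7 and 31.6 CPM with vehicle and at 7.03, 4.92, 9.64, 12.3 and 5.13 CPM with oxaliplatin (log2 FC -1.61 ± 0.40, adjusted p = 0.0153). Cxcl14 stood at 33.6, 30.1, 29.9, 27.4 and 28.7 CPM with vehicle and at 11.7, 23.3, 20.5, 23.2 and 12.8 CPM with oxaliplatin (log2 FC -0.71 ± 0.19, adjusted p = 0.0154). Both had every treated kidney below every vehicle kidney, and treated kidneys 1 and 5 were lowest for Cxcl14. The fold change of Cxcl14 came under 1.5 without treated kidney 1 and by library size alone (log2 FC -0.58 in each). Its call was also lost without a filter (edgeR adjusted p = 0.0621). Ccl6 stood at 1.27, 1.37, 1.64, 0.845 and 2.02 CPM with vehicle and at 2.69, 1.38, 2.84, 2.70 and 2.46 CPM with oxaliplatin (log2 FC 0.75 ± 0.25, adjusted p = 0.0307). Treated kidney 2 lay inside the vehicle range for Ccl6, and Ccl6 lost its call in 8 of 17 alternatives, which include leaving out vehicle kidney 1, 2 or 4 or treated kidney 1, 3 or 4 (adjusted p 0.0525 to 0.0774). Ccl9 stood at 0.411, 0.381, 0.562, 0.644 and 0.324 CPM with vehicle and at 0.861, 0.539, 1.19, 0.561 and 0.720 CPM with oxaliplatin (log2 FC 0.73, 95% interval 0.02 to 1.44, adjusted p = 0.113), with overlap. Cx3cl1, the highest member per kilobase in both kidney groups (22.1 ± 1.99 CPM per kb with vehicle, 27.2 ± 1.61 with oxaliplatin), stood at 89.6, 77.0, 90.4, 81.5 and 96.8 CPM with vehicle and at 105, 102, 109, 117 and 102 CPM with oxaliplatin (log2 FC 0.30 ± 0.07, adjusted p = 0.00458). This difference was without overlap but under 1.5-fold.

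The other kidney ligands were not called. Cxcl16 stood at 41.7, 40.96, 44.7, 40.7 and 41.5 CPM with vehicle and at 55.1, 48.3, 52.6, 42.4 and 42.9 CPM with oxaliplatin (log2 FC 0.20, 95% interval 0.04 to 0.37, adjusted p = 0.0577). Cxcl9 stood at 1.49, 1.22, 1.77, 0.845 and 1.58 CPM with vehicle and at 1.94, 0.404, 0.755, 1.37 and 0.120 CPM with oxaliplatin (log2 FC -0.60, 95% interval -1.69 to 0.48, adjusted p = 0.395). Cxcl10 stood at 2.28, 2.59, 2.46, 1.41 and 4.01 CPM with vehicle and at 2.05, 1.99, 1.40, 2.39 and 0.810 CPM with oxaliplatin (log2 FC -0.57, 95% interval -1.18 to 0.05, adjusted p = 0.155). Groups overlapped for all 3 genes, and the interferon-inducible pair had negative fitted values. Cxcl1 stood at 0.970, 1.22, 0.346, 0.886 and 0.648 CPM with vehicle and at 0.359, 0.842, 0.431, 0.211 and 0.240 CPM with oxaliplatin (log2 FC -0.97, 95% interval -1.85 to -0.09, adjusted p = 0.0907). Ccl5 stood at 1.34, 0.762, 1.60, 1.13 and 2.47 CPM with vehicle and at 1.47, 1.14, 1.51, 1.12 and 0.750 CPM with oxaliplatin (log2 FC -0.28, 95% interval -0.92 to 0.35, adjusted p = 0.505). Ccl27a stood at 4.48, 4.65, 4.84, 4.19 and 5.63 CPM with vehicle and at 5.35, 5.08, 5.72, 3.47 and 3.90 CPM with oxaliplatin (log2 FC -0.02, 95% interval -0.35 to 0.32, adjusted p = 0.948). These 3 overlapped between groups, and Ccl25 was not called either.

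Among kidney receptors, Ccr1 rose from a level near the floor. It stood at 0.149, 0.229, 0.0864, 0.161 and 0 CPM with vehicle, 16 counts in all, and at 1.22, 0.539, 0.647, 1.16 and 1.14 CPM with oxaliplatin, 139 counts in all (log2 FC 2.85 ± 0.49, adjusted p = 3.57e-04). Cxcr4 stood at 2.39, 1.79, 2.03, 2.33 and 1.46 CPM with vehicle and at 3.37, 3.13, 4.06, 3.05 and 2.76 CPM with oxaliplatin (log2 FC 0.71 ± 0.18, adjusted p = 0.00802). Both had every treated kidney above every vehicle kidney. Beside Ccr1, macrophage markers rose in 2 and fell in 4 of 8 tested (40.1 to 47.0 summed CPM with vehicle, 21.6 to 35.2 with oxaliplatin). Of the 11 neutrophil markers, 0 passed the filter (0.518 to 1.33 summed CPM against 0.840 to 3.05). The part of these cells was not tested. Stromal markers rose in 6 of 7 tested (191 to 217 against 421 to 523) and endothelial markers in 3 of 8 (415 to 435 against 507 to 709).

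Ackr2 rose in kidney as in marrow, and stood at 0.299, 0.305, 0.0864, 0.564 and 0.162 CPM with vehicle and at 1.87, 0.842, 0.827, 2.35 and 2.79 CPM with oxaliplatin (log2 FC 2.59 ± 0.45, adjusted p = 4.65e-04). Every treated kidney exceeded every vehicle kidney. Ackr4 stood at 2.72, 4.31, 3.28, 3.94 and 2.11 CPM with vehicle and at 4.27, 4.11, 4.24, 5.37 and 6.90 CPM with oxaliplatin (log2 FC 0.61 ± 0.20, adjusted p = 0.0311). Vehicle kidney 2 reached into the treated range for Ackr4, and its call was lost in 7 of 17 alternatives, which include leaving out vehicle kidney 1, 3 or 5 or treated kidney 4 or 5 (adjusted p 0.0559 to 0.0974). Of its exon length, 8.90% overlaps Acad11 on the opposite strand. Ackr3, the second highest member per kilobase in vehicle kidney (16.8 ± 2.61 CPM per kb), stood at 50.5, 53.6, 46.8, 67.3 and 63.6 CPM with vehicle and at 50.6, 44.7, 48.5, 50.9 and 45.5 CPM with oxaliplatin (log2 FC -0.23, 95% interval -0.42 to -0.04, adjusted p = 0.0666), with overlap.

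The remaining kidney receptors were not called. Ccr2 stood at 2.39, 2.93, 3.33, 1.05 and 2.39 CPM with vehicle and at 2.51, 2.02, 1.73, 3.12 and 1.29 CPM with oxaliplatin (log2 FC -0.18, 95% interval -0.78 to 0.41, adjusted p = 0.663). Cx3cr1 stood at 3.14, 1.68, 2.38, 1.97 and 1.98 CPM with vehicle and at 2.15, 1.62, 1.29, 2.07 and 2.61 CPM with oxaliplatin (log2 FC -0.19, 95% interval -0.67 to 0.29, adjusted p = 0.561). Cxcr3 stood at 0.970, 0.305, 0.950, 0.403 and 1.09 CPM with vehicle and at 0.538, 0.404, 0.360, 0.140 and 0.300 CPM with oxaliplatin (log2 FC -1.09, 95% interval -1.98 to -0.19, adjusted p = 0.0640). All 3 receptors overlapped between the groups. Cxcr6 stood at 0.485, 0.991, 1.12, 1.21 and 0.769 CPM with vehicle and at 0.897, 0.572, 0.863, 1.02 and 0.870 CPM with oxaliplatin (log2 FC -0.11, 95% interval -0.74 to 0.51, adjusted p = 0.807). Ccr10 stood at 1.08, 1.07, 0.778, 1.41 and 1.13 CPM with vehicle and at 1.04, 1.28, 1.11, 1.09 and 1.77 CPM with oxaliplatin (log2 FC 0.20, 95% interval -0.32 to 0.73, adjusted p = 0.568), also with overlap.

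In kidney 7.68% of all genes tested rose and 3.81% fell, the background for the surrounding lists. Of 26 receptor signalling genes tested, 0 rose and 3 fell, namely Plcb2, Vav1 and Rgs10. Of 5 relatives outside the symbol rule, 2 rose, Pf4 (log2 FC 1.70 ± 0.40, adjusted p = 0.00420) and Rarres2 (log2 FC 1.79 ± 0.38, adjusted p = 0.00818), as they did in marrow. Of 11 tested upstream cytokine, NF-kappaB and interferon genes, 0 were called by edgeR, 0 by DESeq2, and 3 were higher and 1 lower at an unadjusted p under 0.05. Among 13 genes that trim or present ligands, Mmp2 rose (log2 FC 1.17 ± 0.19, adjusted p = 2.43e-04) and Mmp12 fell (log2 FC -2.33 ± 0.53, adjusted p = 0.00341).

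Responses of the tissues were compared by the tissue by treatment interaction in all 20 libraries, given as kidney minus marrow log2 FC. Of 44 members tested, 15 differed, which is 34.1% beside 30.1% of 24321 genes, a share close to the background. Of these 15, 11 had the higher response in marrow and 4 in kidney. Among the 21 members tested in both tissues, 10 differed. The share over all genes tested in both tissues was not computed, so this count has no background beside it. Cxcr4 differed with the smallest p and fell in marrow while it rose in kidney (difference 1.61 ± 0.24, adjusted p = 2.65e-05). Ccr1 rose in kidney and was not called in marrow (2.53 ± 0.69, adjusted p = 0.00806). Cxcl9 (-3.59 ± 0.64, adjusted p = 2.50e-04) and Cxcl16 (-0.89 ± 0.21, adjusted p = 0.00305) rose in marrow and were not called in kidney. Cxcl14 fell in kidney and was not called in marrow (-1.11 ± 0.28, adjusted p = 0.00503). Ccl6 rose in both tissues, with the larger fitted rise in marrow (-1.19 ± 0.42, adjusted p = 0.0386), a difference that no longer passed in 15 of 28 alternatives. Among these were library size alone, no filter, the replicate block, the Y-linked covariate and the fits without vehicle marrow 1, 3 or 5, oxaliplatin marrow 1, 2 or 5, vehicle kidney 2, 3 or 5 or oxaliplatin kidney 2 or 5.

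For Ccl8 (-6.79 ± 1.78, adjusted p = 0.00652), Ccl12 (-5.13 ± 1.41, adjusted p = 0.00784) and Ccl2 (-3.09 ± 0.69, adjusted p = 0.00160) the marrow response was larger, although kidney counts were few. Ccl8 had 9 counts in all vehicle kidneys and 50 in all treated kidneys, Ccl12 had 4 and 8, and Ccl2 had 37 and 38. Ccl7 gave a difference of -5.79 ± 2.32, adjusted p = 0.0630, and missed the threshold. Ackr2 gave no detected difference, with nearly the same rise in each tissue (difference -0.20 ± 0.71, adjusted p = 0.875), an error that covers differences of either sign. Ccr2 likewise gave none (0.02 ± 0.41, adjusted p = 0.997). Ackr1 (3.37 ± 0.82, adjusted p = 0.00309), Ackr3 (-1.33 ± 0.33, adjusted p = 0.00384), Cxcr3 (-1.45 ± 0.46, adjusted p = 0.0201), Xcr1 (-4.23 ± 0.91, adjusted p = 0.00117), Cxcl1 (-2.30 ± 0.83, adjusted p = 0.0396) and Ccl25 (0.53 ± 0.20, adjusted p = 0.0474) differed between tissues without a call in either tissue. The difference of Ccl25 no longer passed in 18 of 28 alternatives, which include 14 of the 20 single libraries left out, and that of Cxcl1 in 13, which include 10 of the 20 and the fit without oxaliplatin marrow 3 and 4. Leaving out vehicle kidney 5 also ended the differences of Ccl8 and Cxcr3, and leaving out vehicle kidney 2 or 4 that of Ccl12. Of the 6 genes without a call, Ackr1 had 2 counts in all vehicle kidneys and 21 in all treated kidneys, and Xcr1 had 63 and 9, both under the filter.

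**Figure D5:**
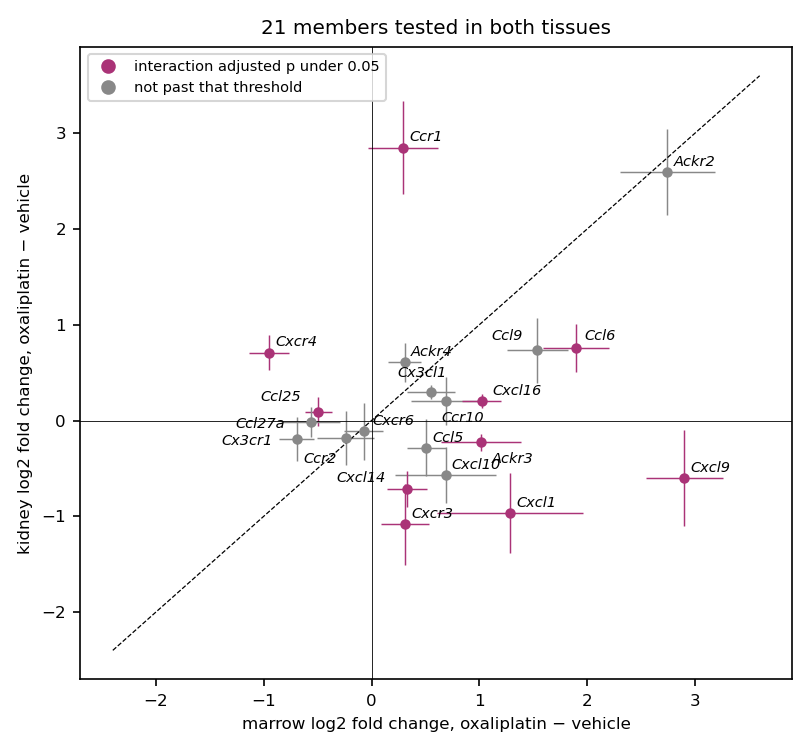
Marrow log2 FC (x axis) against kidney log2 FC (y axis) of the 21 members tested in both tissues, with bars for the standard error and a dashed line of equal response; purple marks the 10 members whose interaction passed an adjusted p of 0.05. Ackr2 lies near the dashed line at 2.74 in marrow and 2.59 in kidney, while Cxcr4 lies at -0.95 and 0.71, and Ccr1 and Cxcl9 lie close to one axis each.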

How the data were processed

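RNA-seq was run on bone marrow and kidney of vehicle and oxaliplatin mice, 5 libraries per group, grouped by their labels. Per the methods and the labels, the authors aligned reads with STAR, kept reads that aligned uniquely and without ambiguity, and deposited raw counts per gene, 1 table per tissue. The sources name more than 1 counter, give library preparation in 2 ways (SMARTer cDNA, or ribosomal RNA removal with random hexamers) and do not state whether counting used strand. Of 55774 lines per table, 287 repeats and 1 gap were left out. Near-identical or overlapping genes can split reads, which is given beside the members concerned.

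Totals were 24393007 to 41140527 counts per library, and no 2 libraries of a group agreed within sampling noise (chi-square per degree of freedom at least 7.51). Each tissue was fitted on all genes passing edgeR's filter (minimum count 10) with TMM scaling and the robust quasi-likelihood test of treatment (edgeR 4.0.16, limma 3.58.1, R 4.3.3). Benjamini-Hochberg adjustment ran over all genes tested, and calls needed an adjusted p under 0.05 and a fold change over 1.5. Tissues were compared by the interaction term over all 20 libraries. The code was tested on simulated data. Alternatives were DESeq2 1.42.0, other scalings, filters and fold thresholds, the replicate number as a block, a Y-linked covariate, each library left out, and, added after seeing the data, oxaliplatin marrow libraries 3 and 4 left out together. Each p-value sets the treatment difference against the spread between these libraries, with the spread of a gene estimated partly from other genes.

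Values per library are given for called members with a mean of at least 1 CPM and for tested members of known ligand and receptor pairs. The remaining called members were added to these. Members, gene lists and pairs were chosen with earlier results of these data known. Some family members are not reported here. Positions are GRCm38 with GENCODE vM21 gene models, and promoters come from RefSeq. Figures used matplotlib 3.10.9.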

Additional observations from a re-analysis of the deposited data

Results flagged for a closer look

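A single library stood far from the other 4 of its group in 6 of 117 groups examined, by the gap to its neighbour over the range of the group, which chance alone does in about 1 of 20. In marrow these were Cx3cl1 in vehicle mouse 4 (10.3 CPM, next 6.24), Xcr1 in the same mouse (0.969 CPM, next 0.325), Ackr2 in vehicle mouse 1 (2.50 CPM, next 0.998) and Ackr3 in oxaliplatin mouse 4 (2.23 CPM, next 1.07). In kidney they were Cxcl16 in vehicle kidney 3 (44.7 CPM, next 41.7) and Ccl6 in oxaliplatin kidney 2 (1.38 CPM, next 2.46).

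Responses differed between the tissues for 15 members by the interaction term. As kidney minus marrow log2 FC, 4 differences were positive: Ackr1 3.37, Ccr1 2.53, Cxcr4 1.61 and Ccl25 0.53. The other 11 were negative, at -6.79 for Ccl8, -5.13 for Ccl12, -4.23 for Xcr1, -3.59 for Cxcl9, -3.09 for Ccl2, -2.30 for Cxcl1, -1.45 for Cxcr3, -1.33 for Ackr3, -1.19 for Ccl6, -1.11 for Cxcl14 and -0.89 for Cxcl16. Only Cxcr4 was called in both tissues with opposite signs.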

How the results depend on the processing

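Of the 20 members called in marrow, 15 kept their call at the 1.5-fold threshold in every alternative in which they were fitted, and of the 7 called in kidney, 4 did; none of these 27 changed sign. The members that lost a call somewhere were Ccl24, Ccl3, Ccl4, Ccr7 and Cx3cr1 in marrow and Ackr4, Ccl6 and Cxcl14 in kidney, and a fold change over 2 also ended the call of Cxcr4 in both tissues. Of the members described and not called, 10 of 18 in marrow and 2 of 14 in kidney were called in at least 1 alternative. Members called higher in marrow numbered 22 by DESeq2 and 8 where every library needed at least 10 counts, which leaves out the members that were near 0 with vehicle. Members called lower in marrow numbered 2 by library size alone, 2 at a fold change over 2 and 3 without a filter, and library size alone moved the median log2 FC of all genes from -0.04 to 0.11 in marrow and from 0.02 to 0.16 in kidney. In kidney, 4 members were lower by DESeq2 and 1 by library size alone, 3 were higher with at least 10 counts in every library or with the Y-linked covariate, and a fold change over 2 left 3, of which 2 were higher and 1 lower. Interactions passed for 6 members with at least 10 counts in every library. Leaving out single libraries gave 17 to 22 calls in marrow (13 to 18 higher, 3 to 6 lower), 5 to 8 in kidney (3 to 5 higher, 1 to 3 lower) and 11 to 17 interactions. The 3 lower calls in marrow came without vehicle or oxaliplatin marrow 5, the 3 higher calls in kidney without vehicle kidney 1 or oxaliplatin kidney 4, and the 1 lower call there without oxaliplatin kidney 1. Without both oxaliplatin marrow libraries 3 and 4, 16 members were higher and 4 lower, with 16 of the 20 calls retained.

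Deviations of same-numbered vehicle and oxaliplatin libraries from their group means correlated weakly (-0.12 to 0.23 in marrow and -0.15 to 0.08 in kidney). Such weak correlations cannot exclude a shared batch, and the labels do not say whether the numbers pair libraries. With the replicate number as a block, marrow lost the calls of Ccl3 and Ccl4 and gained Xcr1, kidney kept 3 higher calls and lost Ackr4 and Ccl6, and the interaction kept 12 of 15, without Ccl25, Ccl6 and Cxcl1.

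Signs changed only for members that were not called. In marrow, Cxcr6 stood at 0.075 by library size alone, -0.14 to 0.026 without single libraries and 0.0050 without 3 and 4, and Ccl22 at -0.0086 with the block, -0.16 to 0.34 without single libraries and -0.72 without 3 and 4. Ccr1 stood at -0.015 with the covariate, Ccr2 at 0.087 and Cxcl10 at -0.097 without 3 and 4. In kidney, Cxcr6 stood at 0.020 by library size alone and -0.28 to 0.0090 without single libraries, Ccl27a at 0.11 by library size alone, 0.0092 with at least 10 counts, 0.099 with the covariate and -0.093 to 0.084 without single libraries, and Ccl5 at 0.014 with the covariate. The cause of these changes was not tested. In kidney, 32 of 64 members had counts but too few to test.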

Other observations

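Some of the 14 marrow members under the filter were called when no filter was used. In that fit 2657 of all 39712 genes were called higher and 2603 lower. The members called had most of their counts in treated mice, and they are no added support for the rise. In the fit of marrow without a filter, Ccl1, the sixth gene of the Ccl2 to Ccl8 row, had 0 counts with vehicle and 29 with oxaliplatin, 2 to 8 in each treated mouse (edgeR adjusted p = 0.00885). Cxcl3, a neighbour of Cxcl5 and Cxcl2, had 5 and 67 counts (adjusted p = 0.00360), Ccl17, a Ccr4 ligand, 20 and 93 (0.0202), and Cxcl11, the third interferon-inducible Cxcr3 ligand, 1 and 30 (0.0321). The groups overlapped for Ccl17 and Cxcl11. Ccr4 itself had 23 and 76 counts and did not pass (0.0925). The remaining members under the filter did not pass either, and Cxcl17, Ccl28 and Ccl27b had negative fitted values (log2 FC -1.27, -0.53 and -0.46).

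In kidney without a filter, Xcr1 had 63 counts with vehicle and 9 with oxaliplatin (edgeR adjusted p = 3.95e-04), and Xcl1, its ligand, had 11 and 0 (0.0399). The groups overlapped for Xcl1, since vehicle kidneys 4 and 5 also had 0 counts. Ccl8 had 9 and 50 counts (0.0322), in the direction of marrow but with groups that overlapped, and Ccl11 had 2 and 23 (0.0726).

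Other marker lists moved as follows. In marrow, mast cell or basophil markers rose in 3 and fell in 3 of 8, and endothelial markers rose in 4 of 8. In kidney, podocyte markers rose in 4 of 5, injured tubule markers in 2 of 5 and adipocyte markers in 5 of 7 with 1 lower, classical monocyte markers rose in 1 and fell in 2 of 7, B cell markers rose in 1 and fell in 1 of 4, dendritic cell markers fell in 1 of 7, and 1 tested marker each of eosinophils, erythroid cells and megakaryocytes rose. Ear1, Ear6, Mcpt8 and Fcer1a had no count in kidney.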
